A study of Homo sapiens with 24 samples.

Results

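U937 is a human acute myeloid leukaemia line of monocytic type. The comparison described here asked whether the transcriptional response of U937 to OTX depended on folic acid. All 12 U937 libraries of the 24 in the series were used, in 4 groups of 3. The groups were U937 with folic acid (+FA) treated with DMSO, the same with OTX, U937 without folic acid (-FA) treated with DMSO, and the same with OTX. No genetic change is named in the labels, which also give no dose of OTX, no duration and no time without folic acid. The labels give OTX only as an abbreviation, and it is read here as the BET inhibitor birabresib, dissolved in DMSO. For each gene the OTX response was OTX minus DMSO on the log2(FPKM + 1) scale, where FPKM is the number of fragments scaled to transcript length and to the size of the library. The folic acid difference was the response without folic acid minus the response with it. A positive difference therefore means a response that lay higher without folic acid.

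BET proteins bind acetylated histones and recruit the elongation machinery to promoters and enhancers, and BET inhibitors displace them. MYC is the best known gene that such inhibitors lower in leukaemia, and HEXIM1, whose product holds the elongation factor P-TEFb inactive, is a common readout that they raise. Folate carries the one-carbon units for thymidylate and purine synthesis and for the methyl group of methionine, so that cells short of it can stall in S phase.

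The monocytic identity of U937 was checked on 12 markers. All 12 had a mean of at least 1 FPKM in both DMSO groups and 11 of 12 in both OTX groups, where the exception was FCGR1A, an IgG receptor. Of 22 lymphoid markers 2 to 4 reached 1 FPKM, of 23 erythroid and megakaryocyte markers 1 to 3, and of 16 stromal and epithelial markers 2. The summed level of the lymphoid list was carried by NKG7, a granule gene, and ran from 220.8 to 251 FPKM in +FA DMSO, 65.8 to 72.1 in +FA OTX, 260.2 to 276 in -FA DMSO and 80.0 to 103 in -FA OTX. The summed FPKM per library ran from 545538 to 644841, and the sequencing depth is unknown. Across genes, which are not independent replicates, log2 values of libraries in a group correlated at a Pearson r of 0.968 to 0.993. The lowest r lay in -FA DMSO and the highest in -FA OTX. The leading axis of the spread within groups held 42.4% of its variance (the next held 11.8%). On that axis -FA DMSO column 2 had the highest score (0.58) and -FA DMSO column 1 the lowest (-0.44). Columns 0, 1 and 2 are the numbers in the deposited -FA table, which could not be matched to the numbers in the labels. Whether replicate libraries stem from separate cultures is not given, and p-values therefore measure the spread between these libraries, which may be technical.

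Of 11194 genes tested with limma, 225 (2.01%) had a folic acid difference with a Benjamini-Hochberg adjusted p below 0.05. The difference was positive for 83 of these (0.741% of genes tested) and negative for 142 (1.27%). With a log2 difference of at least 1 in size there were 18 positive (0.161%) and 11 negative (0.0983%). OTX itself moved 6690 genes without folic acid (59.8%) and 6281 with it (56.1%), and across genes the 2 responses correlated at a Pearson r of 0.74 (Spearman rho 0.71). Among the 83 positive genes, 42 had a response above 0 without folic acid and below 0 with it, 24 had both responses above 0 and 17 both below 0. Their median response was 0.41 without and -0.38 with folic acid. Among the 142 negative genes, 65 had a response below 0 without and above 0 with folic acid, 42 had both below 0 and 35 both above 0, and the medians were -0.43 and 0.21.

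**Figure D1:**
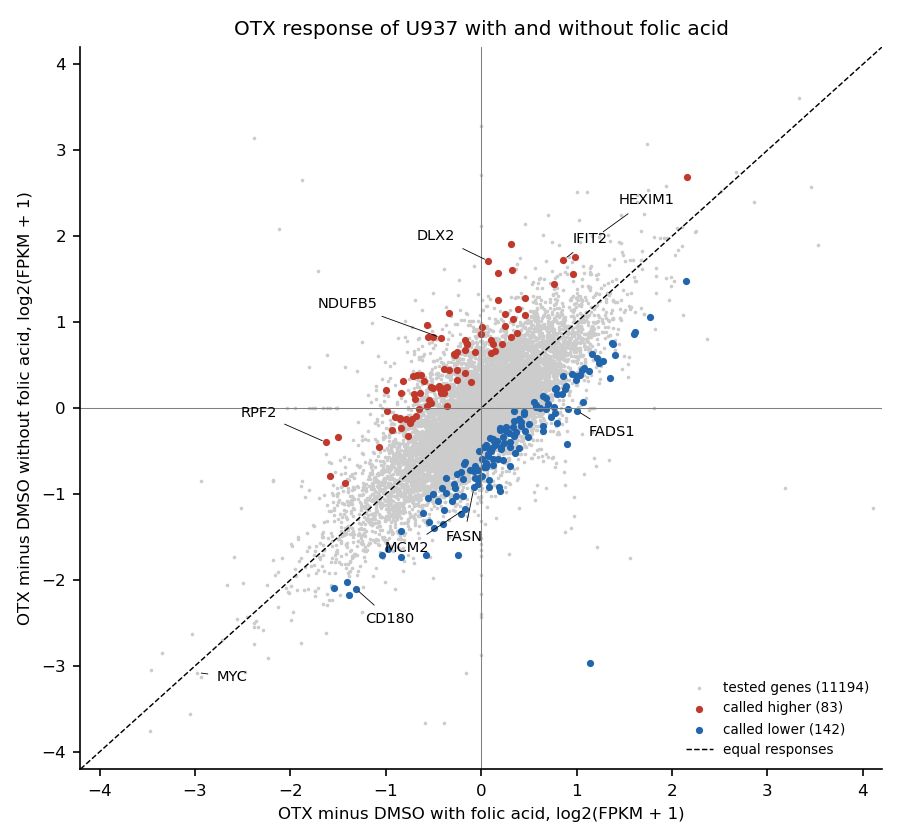
Log2 OTX response of each of 11194 tested genes in U937 with folic acid (x axis) and without it (y axis), with called genes in colour and the dashed line at equal responses. Called genes lie off the dashed line, the 83 positive ones above it and the 142 negative ones below it, and 3 genes fall outside the axes of ±4.2.

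Most of these calls were close to the threshold. Of the 225, 184 had an adjusted p above 0.045, while 3791 genes (33.9%) had an unadjusted p below 0.05. The counts hung on single libraries. Without -FA DMSO column 1 there were 1004 positive and 1683 negative genes, without +FA DMSO 1 there were 637 and 1543, and without -FA OTX column 0 there were 29 and 50. Without any one of the other 9 libraries at most 1 positive and at most 2 negative genes were called. FADS1 was the 1 gene called in all 12 of these fits. Of the other 224 called genes, 155 were called in 2 of the 12 fits, 67 in 3, 1 in 4 and 1 in 5. No gene of the 225 changed the sign of its difference in any of the 12. When all libraries were rescaled to a common median the split became 137 positive against 111 negative. With the replicate number within each table as a block, 0 of the 225 were called, FADS1 included (limma adjusted p = 0.0718). The numbers are not stated to pair libraries. Apart from FADS1, each call described below was lost in at least 7 of the 12 fits that left out 1 library, and the values of every library are given for the genes described in full.

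**Figure D2:**
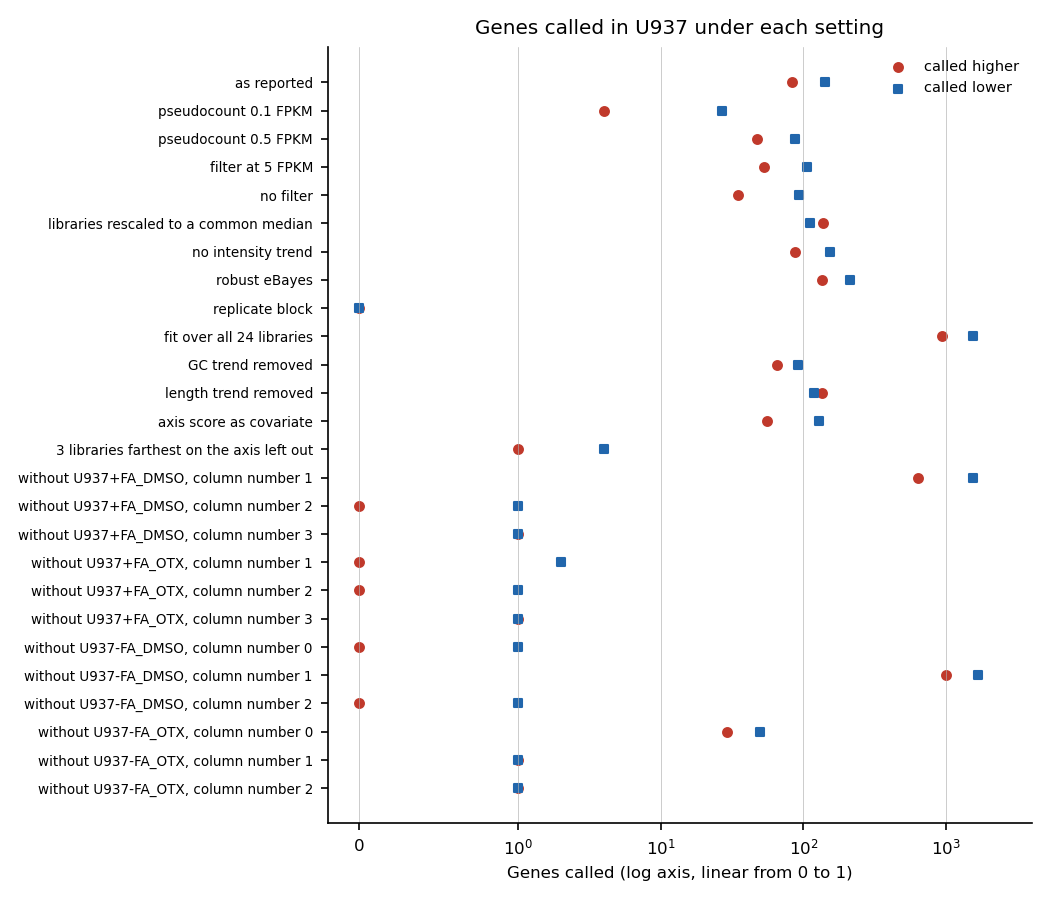
Number of genes called positive (circles) and negative (squares) in U937 under each setting, on a symmetric log axis that is linear from 0 to 1. Leaving out +FA DMSO 1 gives 637 positive and 1543 negative calls and leaving out -FA DMSO column 1 gives 1004 and 1683, while leaving out any one of 9 other libraries gives at most 2 per direction.

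The genes of fatty acid synthesis and desaturation that passed the test had lower OTX responses without folic acid. Of 15 measured list members 4 were called, all 4 with negative differences (beside 1.27% of all genes tested), and 0 were positive. The list's median difference was -0.47 beside -0.05 over all genes tested, and 4 of the 15 lay above 0. FADS1, the delta-5 desaturase of polyunsaturated fatty acids (hg19, chromosome 11, 61567096 to 61584529, a locus the tables give to 2 genes), stood at 54.3, 48.8 and 51.0 FPKM in +FA DMSO and 104, 101 and 105 FPKM in +FA OTX. Without folic acid it stood at 43.7, 42.2 and 45.9 FPKM in DMSO and 43.1, 40.6 and 45.5 FPKM in OTX. All 3 +FA OTX libraries lay far above the other 9, and the -FA OTX and -FA DMSO libraries overlapped. The response was 1.0 with and -0.03 without folic acid, a difference of -1.03 ± 0.102 (SE; limma adjusted p = 0.0059).

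FADS2, the delta-6 desaturase (chromosome 11, 61595712 to 61634825), showed 171, 139 and 157 FPKM in +FA DMSO and 233, 213 and 208 FPKM in +FA OTX, against 127, 117 and 131 FPKM in -FA DMSO and 110.0, 89.5 and 96.4 FPKM in -FA OTX. OTX libraries lay above DMSO libraries with folic acid and below them without it, for a difference of -0.83 ± 0.144 (limma adjusted p = 0.0381). SCD, which makes monounsaturated fatty acids (chromosome 10, 102106771 to 102124588), gave 347, 339 and 331 FPKM in +FA DMSO and 369.9, 417 and 388 FPKM in +FA OTX. Its -FA values were 183, 185 and 184 FPKM in DMSO and 134, 130.5 and 139 FPKM in OTX, so that the groups did not overlap within either table and went opposite ways (difference -0.66 ± 0.101, limma adjusted p = 0.0379). Levels with and without folic acid come from separate tables and were not tested against each other.

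FASN, the fatty acid synthase itself (chromosome 17, 80036213 to 80056106), had overlapping DMSO and OTX values with folic acid, at 149, 133 and 148 FPKM and 152, 131 and 126 FPKM. Without folic acid it was at 125, 119 and 119.9 FPKM in DMSO and 72.5, 57.6 and 61.2 FPKM in OTX, all 3 OTX libraries being lower (difference -0.85 ± 0.145, limma adjusted p = 0.0379). Of the other 11 members none passed. ACACA, the acetyl-CoA carboxylase, had a difference of -0.49 (adjusted p = 0.0873) and SREBF1, the regulator of the pathway, -0.43 (adjusted p = 0.202), both named after their values were seen. Without +FA DMSO 1 or without -FA DMSO column 1, 8 members were called. Without -FA OTX column 0 the count was 4, and without any one of the other 9 libraries it was 1, FADS1.

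**Figure D3:**
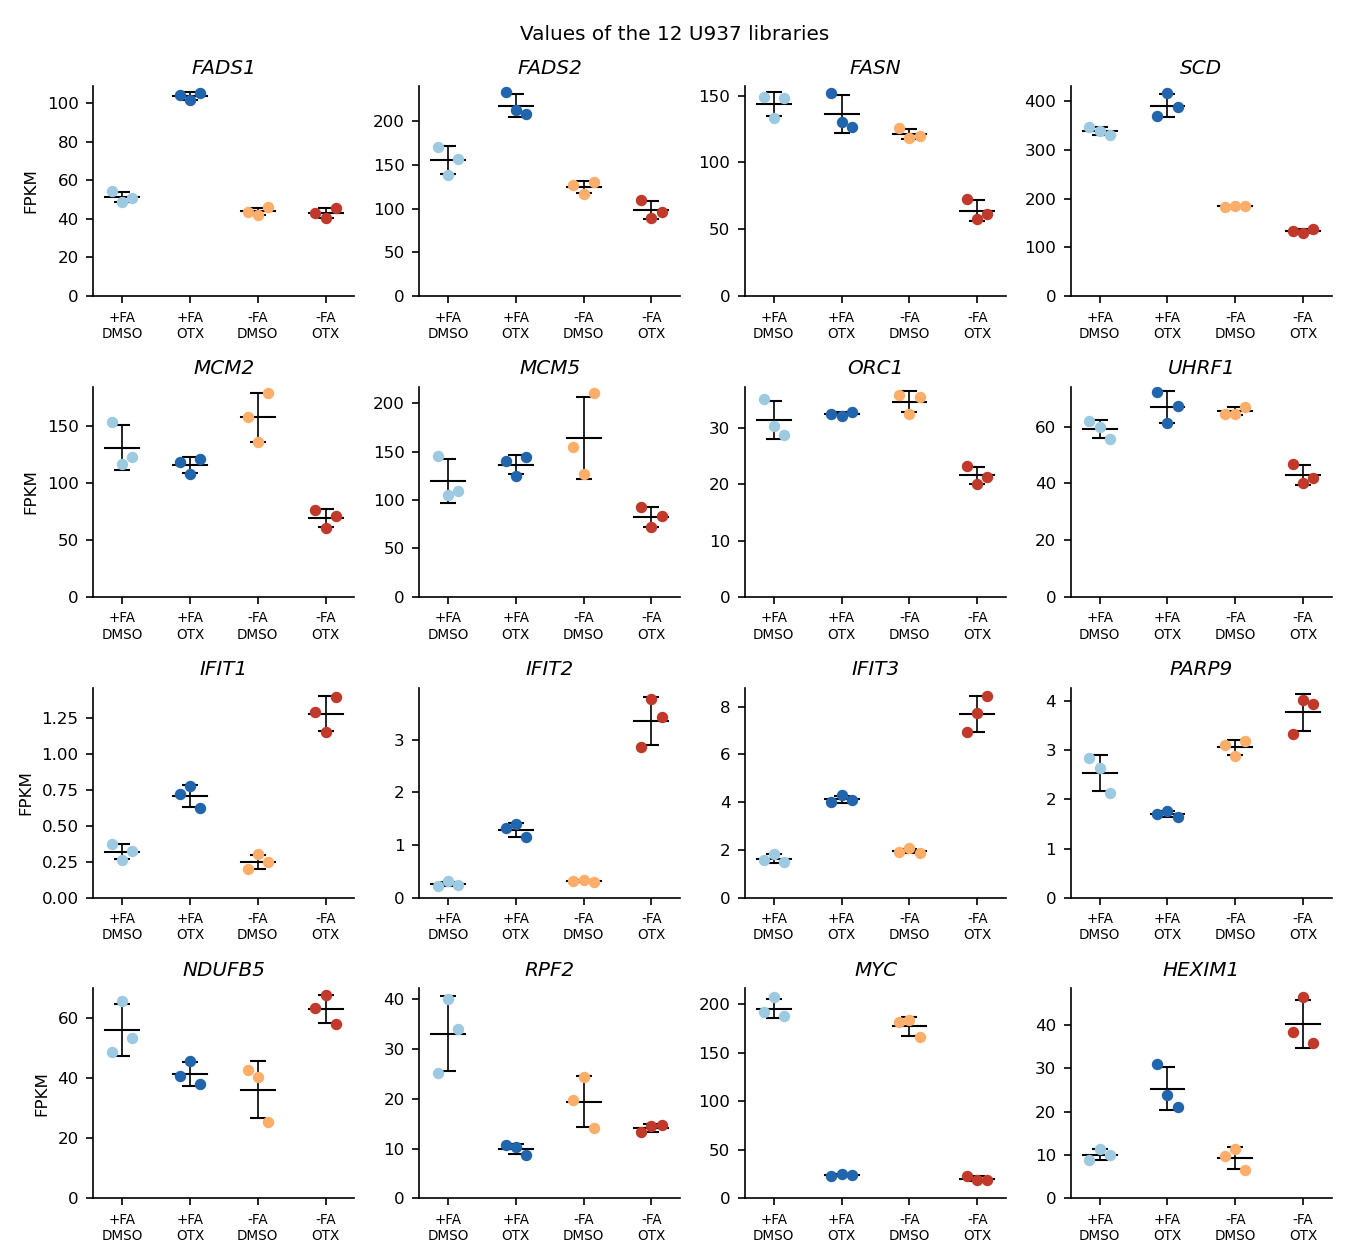
FPKM of 16 genes in each of the 12 U937 libraries (points) with group mean and SD (bars), linear axes from 0. FADS1 stands at 101 to 105 in +FA OTX and at 40.6 to 54.3 in the other 9 libraries, whereas MYC falls with OTX to 18.5 to 25.2 in both tables.

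The DNA replication genes that passed the test also had lower responses without folic acid. Of 34 measured members 6 were called with negative differences (beside 1.27% of all genes tested) and 0 with positive ones, the median was -0.37, and 3 of 34 lay above 0. MCM2, MCM4 and MCM5 are subunits of the replicative helicase. MCM2 stood at 154, 117 and 123 FPKM in +FA DMSO and 119, 108 and 122 FPKM in +FA OTX, which overlapped, and at 158, 137 and 179 FPKM in -FA DMSO and 76.7, 60.7 and 70.9 FPKM in -FA OTX, which did not. Its difference was -1.0 ± 0.186 (limma adjusted p = 0.0454). MCM5 went from 155, 128 and 210.3 FPKM to 92.4, 72.5 and 83.1 FPKM without folic acid, and with it the values were 146, 105 and 109 FPKM in DMSO and 140.5, 125 and 144 FPKM in OTX (difference -1.16 ± 0.251, limma adjusted p = 0.0467). The 3 -FA DMSO libraries of MCM5 spread over more than the distance between the +FA groups, with column 2 highest. ORC1, a subunit of the origin recognition complex, was tighter. It stood at 35.2, 30.3 and 28.8 FPKM and 32.6, 32.2 and 32.9 FPKM with folic acid, and at 35.9, 32.5 and 35.6 FPKM and 23.2, 20.1 and 21.4 FPKM without it (difference -0.71 ± 0.122, limma adjusted p = 0.0379).

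FEN1, the flap nuclease of Okazaki fragments, had a difference of -0.69 ± 0.134, and POLE, the leading strand polymerase, of -0.60 ± 0.118 (limma adjusted p = 0.0454 and 0.0454). MCM4, named after its values were seen, had -0.46 ± 0.0979 (limma adjusted p = 0.0454). FEN1 lies next to the desaturase genes on chromosome 11 (61560108 to 61564714) and ends before the start of FADS1. MCM3, MCM6 and MCM7, the other helicase subunits, had differences of -0.81, -0.58 and -0.57 with adjusted p of 0.0518, 0.0512 and 0.0518, just short of the threshold. PCNA, the polymerase clamp, had a difference of -0.28 (adjusted p = 0.151). Without +FA DMSO 1 or without -FA DMSO column 1 the count of called members was 17 or 15, without -FA OTX column 0 it was 2, and without any one of the other 9 it was 0.

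UHRF1, which guides DNA methylation to newly copied DNA, was the 1 called member of 36 DNA and histone methylation enzymes. Beside 2.01% of all genes called, 1 call in a list of this size, here and below, describes that gene and not its list. It stood at 62.1, 60.0 and 55.7 FPKM in +FA DMSO, 72.4, 61.4 and 67.2 FPKM in +FA OTX, 64.6, 64.7 and 67.1 FPKM in -FA DMSO and 46.8, 40.1 and 42.1 FPKM in -FA OTX. The -FA OTX libraries lay below the other 9, and the +FA groups overlapped (difference -0.77 ± 0.12, limma adjusted p = 0.0379). The list's median was -0.26, with 3 of 36 above 0. TK1, the salvage kinase of thymidine, was the 1 called member of 15 genes of pyrimidine synthesis. OTX took it from 49.6, 48.0 and 47.3 to 126, 104 and 111 FPKM with folic acid and from 54.6, 50 and 46.8 to 83.3, 75.5 and 70.3 FPKM without it, so both responses were upward and the -FA one smaller (difference -0.63 ± 0.134, limma adjusted p = 0.0454). Of 36 mitosis and G2/M genes 0 were called, and their median was 0.11.

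The interferon response genes that passed the test had higher OTX responses without folic acid. Of 31 measured members 5 were called with positive differences (beside 0.741% of all genes tested) and 0 with negative ones, the median was 0.22, and 24 of 31 lay above 0. IFIT1, IFIT2 and IFIT3 encode RNA binding antiviral proteins. IFIT2 stood at 0.221, 0.305 and 0.245 FPKM in +FA DMSO and 1.32, 1.39 and 1.144 FPKM in +FA OTX, and at 0.314, 0.336 and 0.288 FPKM in -FA DMSO and 2.86, 3.77 and 3.42 FPKM in -FA OTX. OTX libraries lay above DMSO libraries in both tables, and the -FA OTX libraries lay above all others. The responses were 0.86 with and 1.72 without folic acid, a difference of 0.86 ± 0.12 (limma adjusted p = 0.0379). IFIT3 followed the same order at 1.56, 1.84 and 1.48, then 3.99, 4.28 and 4.07 FPKM with folic acid, and 1.91, 2.06 and 1.87, then 6.93, 7.73 and 8.44 FPKM without it (difference 0.59 ± 0.114, limma adjusted p = 0.0454). IFIT1, named after its values were seen, was lower still, with DMSO libraries between 0.20 and 0.37 FPKM, +FA OTX at 0.720, 0.776 and 0.624 FPKM and -FA OTX at 1.29, 1.16 and 1.40 FPKM (difference 0.50 ± 0.105, limma adjusted p = 0.0454). At such low levels the pseudocount of 1 FPKM shrinks the log2 values.

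The other called interferon genes, PARP9 and XAF1, had responses below 0 with folic acid. PARP9, a member of the ADP-ribosyltransferase family, went from 2.84, 2.65 and 2.12 to 1.71, 1.77 and 1.65 FPKM with folic acid, and from 3.12, 2.89 and 3.19 to 3.33, 4.04 and 3.95 FPKM without it (difference 0.61 ± 0.126, limma adjusted p = 0.0454). XAF1, a partner of the apoptosis inhibitor XIAP, went from 1.07, 1.35 and 1.21 to 0.393, 0.321 and 0.296 FPKM with folic acid and from 0.898, 1.01 and 0.781 to 0.787, 0.747 and 0.679 FPKM without it (difference 0.60 ± 0.108, limma adjusted p = 0.0436). The responses were -0.38 with and 0.23 without folic acid for PARP9, and -0.72 and -0.12 for XAF1. The transcription factors IRF9 and IRF7 did not pass, with IRF9 at 0.37 (limma adjusted p = 0.0704) and IRF7, which OTX moved by 2.74 without and 2.67 with folic acid, at 0.07 (0.822). With a filter at 5 FPKM, 0 members of the list were called. Without +FA DMSO 1 or without -FA DMSO column 1 the count was 9 or 10, without -FA OTX column 0 it was 3, and without any one of the other 9 it was 0.

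The promoters of the called interferon genes were searched for the interferon-stimulated response element, because all 5 had positive differences, although the OTX responses themselves went different ways. The letters searched were GAAA, then 2 bases of any kind, then GAAA, on both strands, overlaps between matches allowed, in windows from 250 bases before to 50 after each transcription start, as RefSeq gives them on GRCh38.p14. Of 35116 such windows 3.57% held a match. Of the 5 called members 4 had an entry (not IFIT2), and 3 of these 4 held a match in at least 1 window, namely IFIT1, IFIT3 and PARP9. The 3.57% counts windows, whereas a gene was counted for a match in any of its windows. Uncalled members of the interferon list were not counted apart, so the matches are not tied to the folic acid difference. Capitals mark the matches, which on the printed strand read as the reverse complement. The windows are shown 5′ to 3′ on the strand of the gene, for IFIT1 at chr10:89392373-89392672 (plus), IFIT3 at chr10:89327747-89328046 (plus) and PARP9 at chr3:122564251-122564550 (minus).
IFIT1: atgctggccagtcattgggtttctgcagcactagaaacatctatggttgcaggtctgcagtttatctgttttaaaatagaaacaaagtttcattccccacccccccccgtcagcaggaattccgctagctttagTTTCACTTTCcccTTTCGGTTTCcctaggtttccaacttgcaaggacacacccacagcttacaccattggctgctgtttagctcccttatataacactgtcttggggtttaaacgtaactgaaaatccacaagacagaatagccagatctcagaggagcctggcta
IFIT3: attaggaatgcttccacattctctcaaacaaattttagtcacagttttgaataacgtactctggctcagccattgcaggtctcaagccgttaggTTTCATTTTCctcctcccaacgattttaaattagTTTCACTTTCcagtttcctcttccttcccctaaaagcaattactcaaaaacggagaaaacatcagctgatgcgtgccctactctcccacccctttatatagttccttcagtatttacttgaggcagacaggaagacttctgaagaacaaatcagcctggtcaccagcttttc
PARP9: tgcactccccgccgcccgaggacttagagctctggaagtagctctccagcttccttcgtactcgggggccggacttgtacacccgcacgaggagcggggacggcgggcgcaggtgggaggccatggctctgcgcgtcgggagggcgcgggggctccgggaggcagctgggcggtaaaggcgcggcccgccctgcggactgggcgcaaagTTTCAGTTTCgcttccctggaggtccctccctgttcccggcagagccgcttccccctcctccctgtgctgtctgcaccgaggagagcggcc
IFIT1 and this IFIT3 window held 2 matches each and PARP9 held 1. XAF1 held none in either of its windows. The same search gave 1 of 4 called replication genes with an entry (POLE) for the E2F letters TTTGGCGC, found in 0.652% of all windows, and 0 of 3 called fatty acid genes for the SRE letters TCACNCCAC, found in 1.13%. Only the letters given were searched, so a window without a match may hold another form of the site. A match is a description of the sequence and was not tested for use.

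The 15 largest positive differences among called genes with a group mean of at least 5 FPKM ran from 1.01 to 1.63. DLX2, a homeobox factor, stood at 1.08, 1.89 and 2.45 FPKM in +FA DMSO, 2.61, 1.72 and 1.46 FPKM in +FA OTX, 1.5, 1.90 and 0.909 FPKM in -FA DMSO and 6.80, 8.28 and 5.69 FPKM in -FA OTX. The -FA OTX libraries lay above the other 9, which overlapped, for a difference of 1.63 ± 0.304 (limma adjusted p = 0.0454). HIF1A-AS2, an antisense RNA whose locus the tables give to 2 genes, had 1.59, and SNRNP27, a spliceosome protein, 1.40, going from 12.4, 16.4 and 8.54 to 35.2, 43.7 and 35.1 FPKM without folic acid. RPF2, a ribosome assembly factor, fell from 25.1, 40.1 and 34.1 to 10.6, 10.3 and 8.78 FPKM with folic acid, while the values without it overlapped at 19.8, 24.4 and 14.1 FPKM in DMSO and 13.2, 14.5 and 14.8 FPKM in OTX (difference 1.23 ± 0.266, limma adjusted p = 0.0467). SSB, the La protein that binds RNA polymerase III transcripts, showed 121, 187 and 152 FPKM in +FA DMSO, 91.1, 88.5 and 76.4 FPKM in +FA OTX, 92.1, 116 and 78.5 FPKM in -FA DMSO and 107, 123 and 122 FPKM in -FA OTX (difference 1.136 ± 0.235, limma adjusted p = 0.0454). With folic acid its groups did not overlap, and without it they did.

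Subunits of respiratory complex I were the 3 called members of 75 nuclear genes of oxidative phosphorylation, all 3 positive (beside 0.741% of all genes tested). NDUFB5 went from 48.7, 65.8 and 53.6 to 40.6, 45.7 and 38.0 FPKM with folic acid and from 42.8, 40.4 and 25.3 to 63.5, 67.6 and 58.0 FPKM without it, opposite directions with no overlap in either table (difference 1.24 ± 0.25, limma adjusted p = 0.0454). NDUFC2, whose locus the tables give to 6 genes, had 1.38 and NDUFA5 1.05. The list as a whole did not follow them, since its median was -0.16 and 28 of 75 lay above 0. CYCS, the electron carrier cytochrome c, had 1.02. GTF2F2, a subunit of TFIIF, had 1.01 and TAF1D, a factor of RNA polymerase I, 1.09. C6orf203 (1.53), SELM (1.44), RWDD4 (1.21) and KATNBL1 (1.09) completed the 15 highest called differences.

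Base composition and the spread within groups moved with these genes. The median transcript GC content was 41.8% for the called positive genes, 57.2% for the called negative genes and 50.2% for all tested genes (a GC value was found for 88.0%, 94.4% and 92.8%). Over the 10388 tested genes with a GC value the relation was weak, the difference correlating with GC percent at a Pearson r of -0.11 (Spearman rho -0.14). After the GC trend of each library was removed, 65 positive and 92 negative genes were called, and 88 of the 207 called genes with a GC value stayed called. Across 11194 genes the difference correlated with the loading on the leading axis of the spread within groups at a Pearson r of -0.68 (Spearman rho -0.74), values that share the same 12 libraries. For a covariate, each library was scored on that axis again from values centred over all 12 libraries, which keeps differences between groups. This score can therefore take up part of the folic acid difference itself. With it in the fit, 56 positive and 128 negative genes were called, and 109 of the 225 stayed called. A set of 65 genes was called in all 3 fits. FADS1, FADS2, FASN, SCD, MCM2, ORC1, FEN1, POLE, UHRF1, TK1, IFIT2, IFIT3, PARP9, DLX2 and CD86 were among them, while NDUFB5, NDUFC2, NDUFA5, RPF2, SSB, MCM5, IFIT1 and XAF1 were not. With the 3 libraries farthest out on the axis left out, which leaves 1 library of -FA DMSO, 1 positive and 4 negative genes were called, none of them among the 225.

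The largest negative differences outside the lists above were of several kinds. SLMO2-ATP5E, a readthrough transcript whose locus the tables give to 3 genes, had -4.11 ± 0.894, but its values scattered, from 12.9, 1.89 and 8.08 FPKM in +FA DMSO and 11.7, 12 and 22.6 FPKM in +FA OTX to 26.6, 12 and 33.4 FPKM in -FA DMSO and 5.58, 0.437 and 1.70 FPKM in -FA OTX. PCNA-AS1 (-1.32) shares its locus with PCNA on the opposite strand, and no source used here says whether fragments were counted by strand. BLVRB, a biliverdin reductase of haem breakdown, went from 276, 247 and 348 to 161, 142 and 154 FPKM without folic acid, while the +FA values overlapped at 203, 148 and 167 FPKM in DMSO and 209, 176 and 201 FPKM in OTX (difference -1.10 ± 0.201, limma adjusted p = 0.0454). GRN, the lysosomal growth factor progranulin, had the reverse layout. OTX libraries were higher with folic acid, 318, 291 and 322 against 194, 142 and 160.5 FPKM, and overlapped DMSO without it, at 478, 423 and 453 against 427, 385 and 568 FPKM (difference -0.92 ± 0.206, limma adjusted p = 0.0487).

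SIVA1, a promoter of cell death, had -0.92, ACTA2, a smooth muscle actin, -1.0, MSH5, a meiotic mismatch repair homologue, -0.96, and MRPL55, a mitochondrial ribosomal protein, -0.90. The list of 76 mitochondrial ribosomal proteins had 1 further call, MRPL1 at 0.62, in the other direction. PRR19 (-1.02), NCKIPSD (-0.98), C19orf48 (-0.95) and TMEM39B (-0.91) completed the 15 lowest. The loci of ACTA2, MSH5, PRR19 and C19orf48 are given to more than 1 gene in the tables. The same holds for UHRF1, PARP9, SSB, GTF2F2 and RPLP2, described in other paragraphs. Of 82 small RNA genes tested, 0 were called positive and 2 negative (beside 0.741% and 1.27% of all genes tested). PFKFB4, which sets the level of an activator of glycolysis, was the 1 called member of 25 glycolysis genes, at 8.67, 7.84 and 8.35 and 9.62, 9.20 and 8.47 FPKM with folic acid (DMSO, then OTX) and 9.62, 9.17 and 9.55 and 5.82, 4.94 and 6.05 FPKM without it. All 3 -FA OTX libraries lay below the other 9 (difference -0.79 ± 0.113, limma adjusted p = 0.0379), and the list's median was -0.35.

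For the usual readouts of BET inhibition, MYC, HEXIM1 and SERPINI1, the folic acid difference did not pass the test. MYC stood at 192, 207 and 188 FPKM in +FA DMSO and 22.6, 25.2 and 24.1 FPKM in +FA OTX, and at 182, 184 and 166 and 23.2, 18.5 and 18.9 FPKM without folic acid. Its fall did not differ past the test, with a difference of -0.10 and a 95% interval from -0.39 to 0.19 (limma adjusted p = 0.611). HEXIM1 went from 8.84, 11.3 and 9.96 to 30.8, 23.9 and 21.1 FPKM with folic acid and from 9.86, 11.5 and 6.57 to 38.4, 46.4 and 35.7 FPKM without it. The -FA OTX libraries lay above all others, but the difference of 0.78 (95% interval 0.20 to 1.36) had an adjusted p of 0.081. SERPINI1, a serpin gene that BET inhibitors are known to raise, had 0.84 ± 0.208 and an adjusted p of 0.0525. BRD2 (-0.14, adjusted p = 0.387), the cell death inhibitor BCL2 (-0.06, 0.758) and the cell cycle kinase CDK6 (-0.44, 0.213) did not pass.

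Of 10 genes reported as raised by BET inhibitors 0 were called, although 9 of 10 had a positive difference and the median was 0.52. The widest was HIST1H1C, a linker histone named after its values were seen, at 1.68 (adjusted p = 0.0731). Of 10 genes reported as lowered 3 were called, all 3 with negative differences (beside 1.27% of all genes tested), and the median was -0.31. CD180, a Toll-like receptor relative of B cells and monocytes, went from 2.21, 1.80 and 1.65 to 0.180, 0.160 and 0.128 FPKM with folic acid and from 4.51, 5.21 and 4.97 to 0.459, 0.415 and 0.253 FPKM without it (difference -0.79 ± 0.128, limma adjusted p = 0.0379). CSF1R, the receptor of macrophage growth factor, had -0.52 and CCR2, a chemokine receptor, -0.50, from DMSO levels that were under 1 FPKM with folic acid for both. For all 3 the DMSO level was higher without folic acid and the OTX libraries were at or below 0.459 FPKM in both tables, and on the log2(FPKM + 1) scale a gene can fall by no more than its own DMSO level. As a ratio of mean FPKM with no pseudocount, OTX lowered CD180 12.1-fold with and 13.0-fold without folic acid, and CSF1R 4.49-fold and 5.23-fold. With a pseudocount of 0.1 FPKM none of the 3 was called, CD180 having -0.47 (limma adjusted p = 0.241), CSF1R -0.55 (0.195) and CCR2 -0.81 (0.176). For CCR2 the OTX libraries stood at 0.0115, 0 and 0 FPKM with and 0.0612, 0.0262 and 0.0127 FPKM without folic acid, so that its mean relative to DMSO was lower with folic acid, the opposite of the sign of its difference.

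Monocyte and macrophage markers had 1 positive and 2 negative calls among 27 measured (beside 0.741% and 1.27% of all genes tested). The negative ones were CD180 and CSF1R. CD86, a costimulatory ligand of antigen-presenting cells, stood at 0.477, 0.498 and 0.357 FPKM in +FA DMSO and 0.686, 0.562 and 0.459 FPKM in +FA OTX, which overlapped, and at 0.866, 0.762 and 1.04 FPKM in -FA DMSO and 1.87, 2.32 and 2.30 FPKM in -FA OTX, which did not (difference 0.62 ± 0.129, limma adjusted p = 0.0454). IL8, the neutrophil chemokine, was the 1 called member of 26 NF-kB targets and cytokines, taken from 2.61, 2.40 and 1.56 to 0.218, 0.309 and 0.111 FPKM with folic acid and from 6.27, 6.54 and 7.13 to 0.789, 0.676 and 0.596 FPKM without it (difference -0.80 ± 0.171, limma adjusted p = 0.0454). As a ratio of means its fall was 10.3-fold with and 9.68-fold without folic acid, and with a pseudocount of 0.1 FPKM the difference was -0.21 (limma adjusted p = 0.681). IL8 and CCR2 were the 2 of the 225 called genes whose ratios of means differed in the direction opposite to the log2(FPKM + 1) difference. ZFP36, which destabilises inflammatory mRNAs, was the 1 called of 29 immediate early genes, raised in both tables and to 34.2, 36.8 and 30.7 FPKM without folic acid against 20.3, 15.4 and 16.5 FPKM with it (difference 0.77). Stromal markers had 2 measured members, ACTA2 above and the adhesion gene PECAM1 (0.60), which were called in opposite directions. Summed levels per library of the whole stromal list were 9.59 to 9.65 FPKM in +FA DMSO, 12.3 to 14.7 in +FA OTX, 14.25 to 14.28 in -FA DMSO and 14.5 to 16.9 in -FA OTX, with 7 of 16 genes at 0 in every library.

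Folate genes themselves showed no called difference. That held for all 11 measured cytosolic folate enzymes and transporters (median -0.18), all 8 mitochondrial folate and glycine cleavage genes (median -0.19) and all 16 genes of the methionine cycle and S-adenosylmethionine use (median -0.16). With the axis covariate 1 cytosolic member was called, as negative, and none in the other folate lists. Beside 2.01% of all genes called, 0 calls in a list of this size, here and below, says little about the list. Those nearest to a call, named after their values were seen, were TYMS, the thymidylate synthase, whose responses were -0.19 without and 0.78 with folic acid (difference -0.97, limma adjusted p = 0.0536), AHCY, which clears S-adenosylhomocysteine (-0.61, 0.0679), and MTHFD1, a trifunctional folate enzyme (-0.38, 0.0758). Purine synthesis (14 measured, median -0.13), serine synthesis and ATF4 response genes (33, median -0.07) and MYC targets (41, median -0.09) had 0 calls each as well. In 23 of the 41 lists no member was called, and their medians ran from -0.22 for proteasome subunits to 0.52 for the genes reported as raised by BET inhibitors.

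Remaining lists had at most 1 call in a direction. MSMO1, a demethylating enzyme of cholesterol synthesis, had 0.89 among 23 measured genes of that pathway, whose median was -0.15. LIPA, the lysosomal acid lipase, had 0.59 and GUSB, a lysosomal glucuronidase, -0.76 among 40 lysosome and autophagy genes. RPLP2, a ribosomal stalk protein, had -0.74 among 79 cytosolic ribosomal proteins. NEAT1, the RNA scaffold of paraspeckles, was raised by OTX from 50.3, 44.3 and 49.3 to 225, 224 and 201 FPKM with folic acid and from 46.2, 42.1 and 45.7 to 291, 299.5 and 290.2 FPKM without it (difference 0.54 ± 0.112, limma adjusted p = 0.0454).

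**Figure D4:**
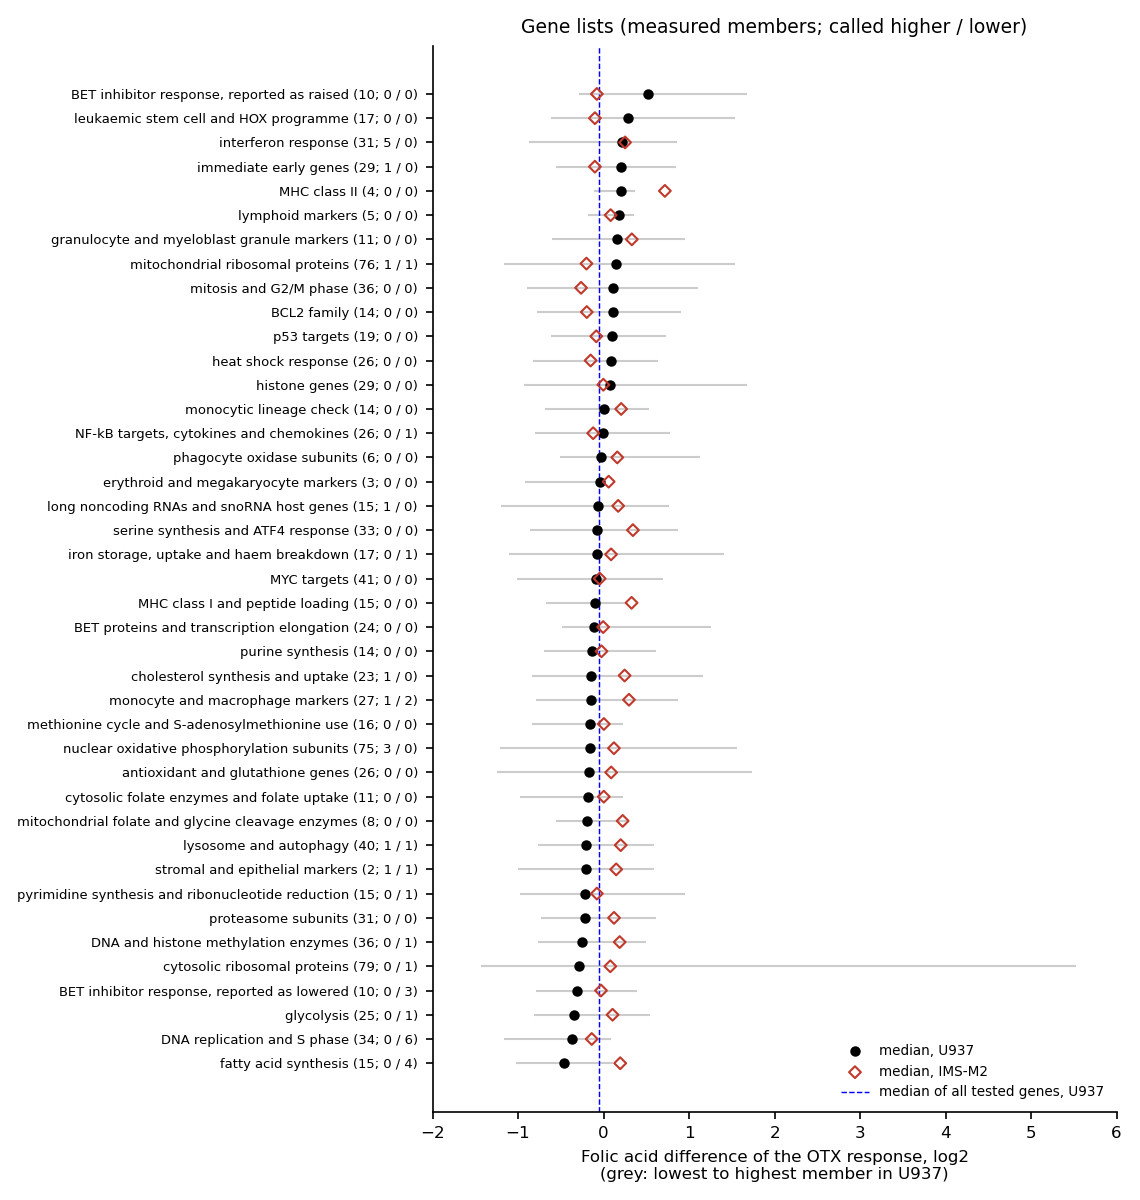
Median folic acid difference of the OTX response for each of 41 gene lists in U937 (filled circles) and in IMS-M2 (open diamonds), with the range of the members in U937 (grey) and the median of all tested U937 genes (dashed, -0.05). Fatty acid synthesis lies lowest in U937 at -0.47 and on the other side of 0 in IMS-M2 at 0.19, while interferon response lies at 0.22 in U937 and 0.25 in IMS-M2.

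The same contrast in IMS-M2, another acute myeloid leukaemia line with its own 12 libraries, was set beside that of U937. There 779 of 11223 genes were called (6.94%), a count that ran from 82 without -FA OTX 1 to 3417 without +FA DMSO 1. Across the 10220 genes tested in both lines, which are not independent replicates, the differences ran against each other, with a Pearson r of -0.64 (Spearman rho -0.72) and the same sign in 22.7% of genes. Of the genes called positive in U937, 7 of 73 were positive in IMS-M2 (median -0.42), and of those called negative, 15 of 122 were negative in IMS-M2 (median 0.26). The 2 lines share no library, and whether labels or batches have a part in the opposite signs was not tested. Of the genes called in IMS-M2 and tested in both lines, 597 had the opposite sign in U937 and 60 the same. In all, 23 genes were called in both lines, of which 22 had opposite signs. IL8 had the same sign (-0.80 and -0.79), but its U937 value rests on the pseudocount, as given above.

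The 4 fatty acid genes were among those 22. In IMS-M2 the differences were 0.71 for FADS1, 0.72 for FADS2, 0.81 for FASN and 0.59 for SCD. Their limma adjusted p in that line were 0.0126, 0.0271, 0.0303 and 0.0175. The lists were chosen with earlier results of these data known, so these values are no independent test. Opposite signs were also the rule among all genes called in IMS-M2, as given above. The line difference, U937 minus IMS-M2, was fitted over all 24 libraries, where 4348 of 12197 genes were called (35.6%). It contains the U937 difference on which the called genes were chosen, so for these its values are given with no test. They were -1.74 for FADS1, -1.55 for FADS2, -1.66 for FASN and -1.25 for SCD. The called replication genes MCM2, ORC1 and FEN1 had 0.32, -0.01 and -0.12 in IMS-M2, none called there, and line differences of -1.33, -0.70 and -0.57. Of the 34 replication list members tested in IMS-M2, 2 were called negative and 0 positive, with a median of -0.14. Over all genes tested in that line the median was 0.03, and 6.94% were called either way. The called interferon genes that were tested in both lines had 0.37 for IFIT2, 0.22 for IFIT3 and 0.23 for PARP9 in IMS-M2, none called there, and line differences of 0.49, 0.38 and 0.38. Of the 25 interferon list members tested in IMS-M2, 3 were called positive and 0 negative, with a median of 0.25. HEXIM1 had -0.28 in IMS-M2 and a line difference of 1.06 (limma adjusted p = 0.0158), and MYC -0.15 and 0.05 (0.825).

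**Figure D5:**
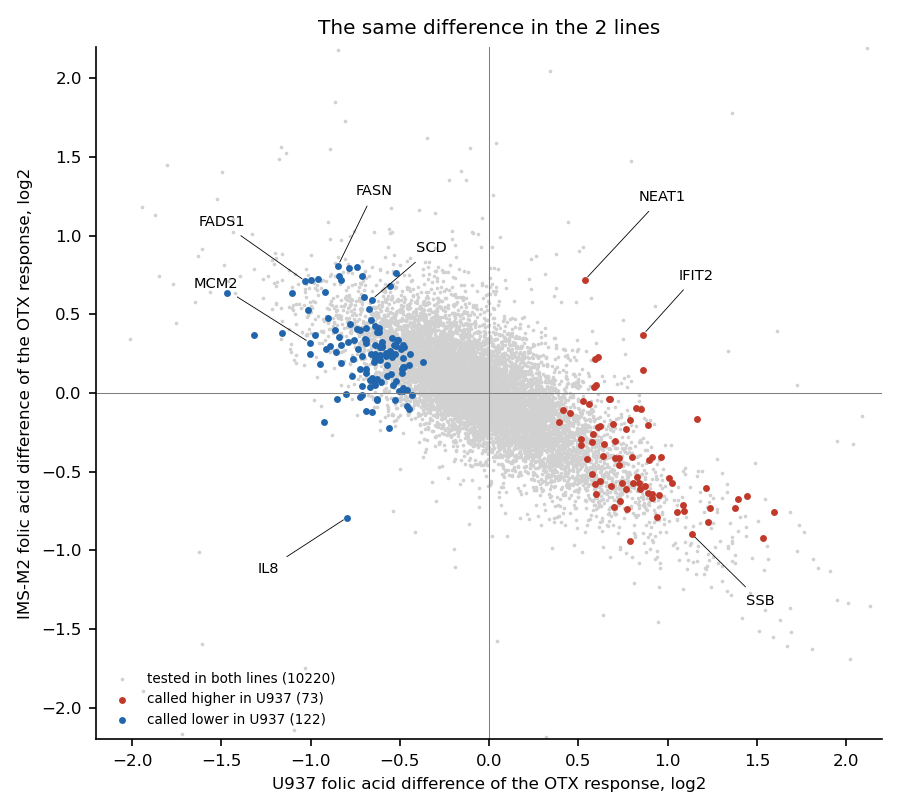
Folic acid difference of the OTX response in U937 (x axis) and IMS-M2 (y axis) for 10220 genes tested in both lines, log2, with the genes called in U937 in colour. The cloud runs from upper left to lower right, FADS1, FASN and SCD lie upper left, IL8 lies lower left and IFIT2 and NEAT1 upper right, and 30 genes fall outside the axes of ±2.2.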

How the data were processed

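Polyadenylated RNA of 24 libraries was sequenced, with stranded mRNA libraries per the labels' protocols. The deposited values are FPKM made by the authors, in 4 tables of 23595 genes, 1 per cell line and folic acid condition. The unit was taken from the values and the table layout. The build hg19 and the tools Cuffdiff 2.2.1, TopHat2 2.1.1 and bcl2fastq 2.17.1.14 are listed in the submitters' processing notes without roles or order, and no source used here says whether the tables shared 1 normalization. Locus positions are printed as deposited. Read counts and library depths were not analysed here, so no counting interval could be given.

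Genes whose mean reached 1 FPKM in 1 of the 4 groups were tested on log2(FPKM + 1) with limma 3.58.1 in R 4.3.3 (group means, eBayes with an intensity trend, Benjamini-Hochberg over all genes tested, threshold 0.05). The pseudocount understates changes of low genes. Each OTX response was taken within 1 table. IMS-M2 was fitted alike, and the line difference over all 24 libraries. Intervals are 95%. The procedure was tested on simulated data.

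Samples were grouped by their labels. The genes always named were CD180, BRD2, CDK6, BCL2, SERPINI1, HEXIM1 and MYC, then the 15 highest and 15 lowest called differences whose mean reached 5 FPKM in 1 group (small RNAs as counts), then up to 4 called members per direction of each of 41 lists. The genes, lists and tests were chosen with earlier results of these data known. Lists are described by counts and medians, with no set test. Replicate numbers were not taken as pairs over the whole design: same-numbered libraries correlated at -0.33, 0.13 and -0.24 with folic acid, but at 0.18, 0.19 and 0.33 without it. Alternatives were other pseudocounts, filters, scalings and variance models, a replicate block, a fit over all 24 libraries and leaving out each library. Removing GC or length trends, the axis covariate and leaving out 3 libraries were added after seeing the data. The GC and length values came from GENCODE v29 transcripts, and promoters from RefSeq.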

Additional observations from a re-analysis of the deposited data

Results flagged for a closer look

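For 56 of the 62 genes named in the report's lists and rankings, limma's line difference between U937 and IMS-M2 in the folic acid difference of the OTX response, over all 24 libraries, had an adjusted p below 0.05. Over all genes tested 35.6% did. Nearly all of the 62 were chosen for a called U937 difference, which the line difference contains, so the count is a description and shows nothing about these genes as a group. Values are U937 minus IMS-M2 on the log2(FPKM + 1) scale, and their cause was not tested. DLX2, XAF1, CD180 and CCR2 had a mean below 1 FPKM in every IMS-M2 group and were not tested in that line alone. Their U937 differences were 1.63, 0.60, -0.79 and -0.50. Their line differences below therefore set U937 against a line where these genes were low, and do not describe a response in IMS-M2.

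Among genes with a positive line difference, the widest were C6orf203 (2.46), HIF1A-AS2 (2.35), NDUFC2 (2.11), SELM (2.09), SNRNP27 (2.07), RPF2 (2.05), SSB (2.03) and NDUFB5 (1.96). KATNBL1 (1.84), RWDD4 (1.82), NDUFA5 (1.81), TAF1D (1.80), DLX2 (1.63), CYCS (1.60), GTF2F2 (1.55), MSMO1 (1.32), MRPL1 (1.18) and HEXIM1 (1.06) followed. Line differences below 1 were found for ZFP36 (0.99), SERPINI1 (0.85), CD86 (0.83), BCL2 (0.60), LIPA (0.55), PECAM1 (0.55), IFIT2 (0.49), XAF1 (0.39) and IFIT3 (0.38).

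Among genes with a negative line difference, the readthrough SLMO2-ATP5E stood alone at -6.27. The genes FADS1 (-1.74), BLVRB (-1.73), PCNA-AS1 (-1.69), MSH5 (-1.68), FASN (-1.66), PFKFB4 (-1.58), GRN (-1.57), FADS2 (-1.55), PRR19 (-1.54) and MCM5 (-1.54) came next. Values between those and -1 belonged to MRPL55 (-1.38), NCKIPSD (-1.35), MCM2 (-1.33), CSF1R (-1.29), SCD (-1.25), ACTA2 (-1.25), TMEM39B (-1.20), RPLP2 (-1.15), C19orf48 (-1.13) and GUSB (-1.09). The smallest were UHRF1 (-0.88), CD180 (-0.76), SIVA1 (-0.74), ORC1 (-0.70), POLE (-0.67), TK1 (-0.58), CCR2 (-0.58) and FEN1 (-0.57).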

How the results depend on the processing

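Counts are given as positive and negative genes called in U937, 83 and 142 as reported. They were 4 and 27 with a pseudocount of 0.1 FPKM, 47 and 87 with 0.5 FPKM, 53 and 106 with a filter at 5 FPKM, 35 and 93 with no filter, 137 and 111 after rescaling, 135 and 213 with robust eBayes, and 942 and 1541 in the fit over all 24 libraries. With alternatives added after seeing the data they were 65 and 92 with the GC trend removed, 136 and 118 with the length trend removed, and 1 and 4 without the 3 libraries farthest out. Leaving out 1 library gave 0 to 1004 positive and 1 to 1683 negative genes. With the replicate number as a block 0 and 0 genes were called, and 0 members of the fatty acid, replication and interferon lists. Among the OTX columns of its table, each -FA DMSO column correlated best with that of its own number (0.18, 0.19 and 0.33). No +FA DMSO column did. This is a hint from the data and not the design.

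For members called of fatty acid synthesis (4), DNA replication (6) and interferon response (5), leaving out 1 library gave 1 to 8, 0 to 17 and 0 to 10. Replication had 1 call with a pseudocount of 0.1, 11 with robust eBayes and 18 over all 24 libraries. Interferon response had 1, 12 over all 24 libraries, 0 with a filter at 5 FPKM and 3 with the axis covariate. Without the 3 libraries farthest out all 3 lists had 0. In IMS-M2 the 779 calls became 445 with no filter and 82 to 3417 when 1 library was left out. Signs reversed for MYC with the GC trend removed (log2 0.00076) and for BCL2 without +FA DMSO 1, its values with 1 library left out running from -0.14 to 0.017, and neither gene was called. The causes of these changes were not tested. FADS1 was called in 11 of 13 other settings, the exceptions being the replicate block and the 3 libraries left out. Depth is unknown, so its limit on low genes such as IFIT1 could not be computed.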
